A study of Rattus norvegicus with 6 samples.

Results

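The genes that carry a fatty acid from uptake to oxidation were examined in primary neonatal rat cardiomyocytes, cultured heart muscle cells, treated with hCT1. The set lists 52 genes of fatty acid uptake, activation, transport into mitochondria, beta-oxidation and lipid storage, each represented by its brightest probe set that is paired with exactly 1 gene symbol. Of these, 50 were measured among 14506 genes, while Slc22a5 and Acaa1a had only probe sets with several symbols and were left out. The cells came from ventricles of 2-day-old Sprague-Dawley rats, went through 2 rounds of pre-plating to remove fibroblasts, and were kept in serum-free medium. For 24 h they received hCT1, recombinant human cardiotrophin 1, at the 0.5 nM given in the methods (3 samples), or control serum-free medium alone (3 samples). The sample records also mention, under growth, a hypertrophic agonist without exempting the controls, while the treatment protocol names control serum-free medium, which is how the controls are described here. Total RNA of each sample was hybridised to 1 Affymetrix whole-transcript array. The records state triplicate RNA isolation but not separate cultures, so the p-values reflect how these arrays varied, and that variation may be technical only.

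Fatty acids are the main fuel of the adult heart, while the newborn heart is still changing over from glucose and lactate. A fatty acid is taken up by carrier and binding proteins, joined to coenzyme A by acyl-CoA synthetases, passed through the mitochondrial membranes as a carnitine ester, and shortened by the repeated steps of beta-oxidation: dehydrogenation, hydration, a further dehydrogenation and thiolysis. Electrons from the acyl-CoA dehydrogenases enter the respiratory chain through the electron transfer flavoprotein (ETF). Malonyl-CoA, made by acetyl-CoA carboxylase, inhibits carnitine palmitoyltransferase 1, the gate to the mitochondrion. Fatty acids that are not burned are stored as triglyceride in lipid droplets.

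Of the 50 genes, 16 were lower and 2 were higher with hCT1 at a Benjamini-Hochberg adjusted p under 0.05 from limma, while the test was not passed by the other 32. Over all genes, 9.58% were lower and 5.09% were higher by the same rule. Values are log2 RMA values throughout, so a difference of 1 is a doubling of signal, and probe sets of different genes are not compared in level. The largest fall was in Tecrl (2.66-fold lower), followed by Hadh and Fabp3 (1.67-fold and 1.66-fold lower), G0s2 (1.58-fold lower) and Acot13 (1.45-fold lower). The genes that rose were Plin2 (1.23-fold) and Acsl3 (1.21-fold). With each array centred on its median, 14 genes were lower and 4 higher, where 8.52% and 6.13% of all genes were. Without control replicate 1, 12 were lower and 0 higher, where 5.13% and 3.11% of all genes were. The median log2 fold change was -0.11 over the 50 genes and -0.0005 over all genes. In 19 of the 50 genes every hCT1 sample lay below every control sample, and in 5 every hCT1 sample lay above; over all genes these shares were 20.0% and 14.2%. All 18 genes that passed the test had groups that did not overlap, as had 6 of the 32 that did not pass.

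**Figure D1:**
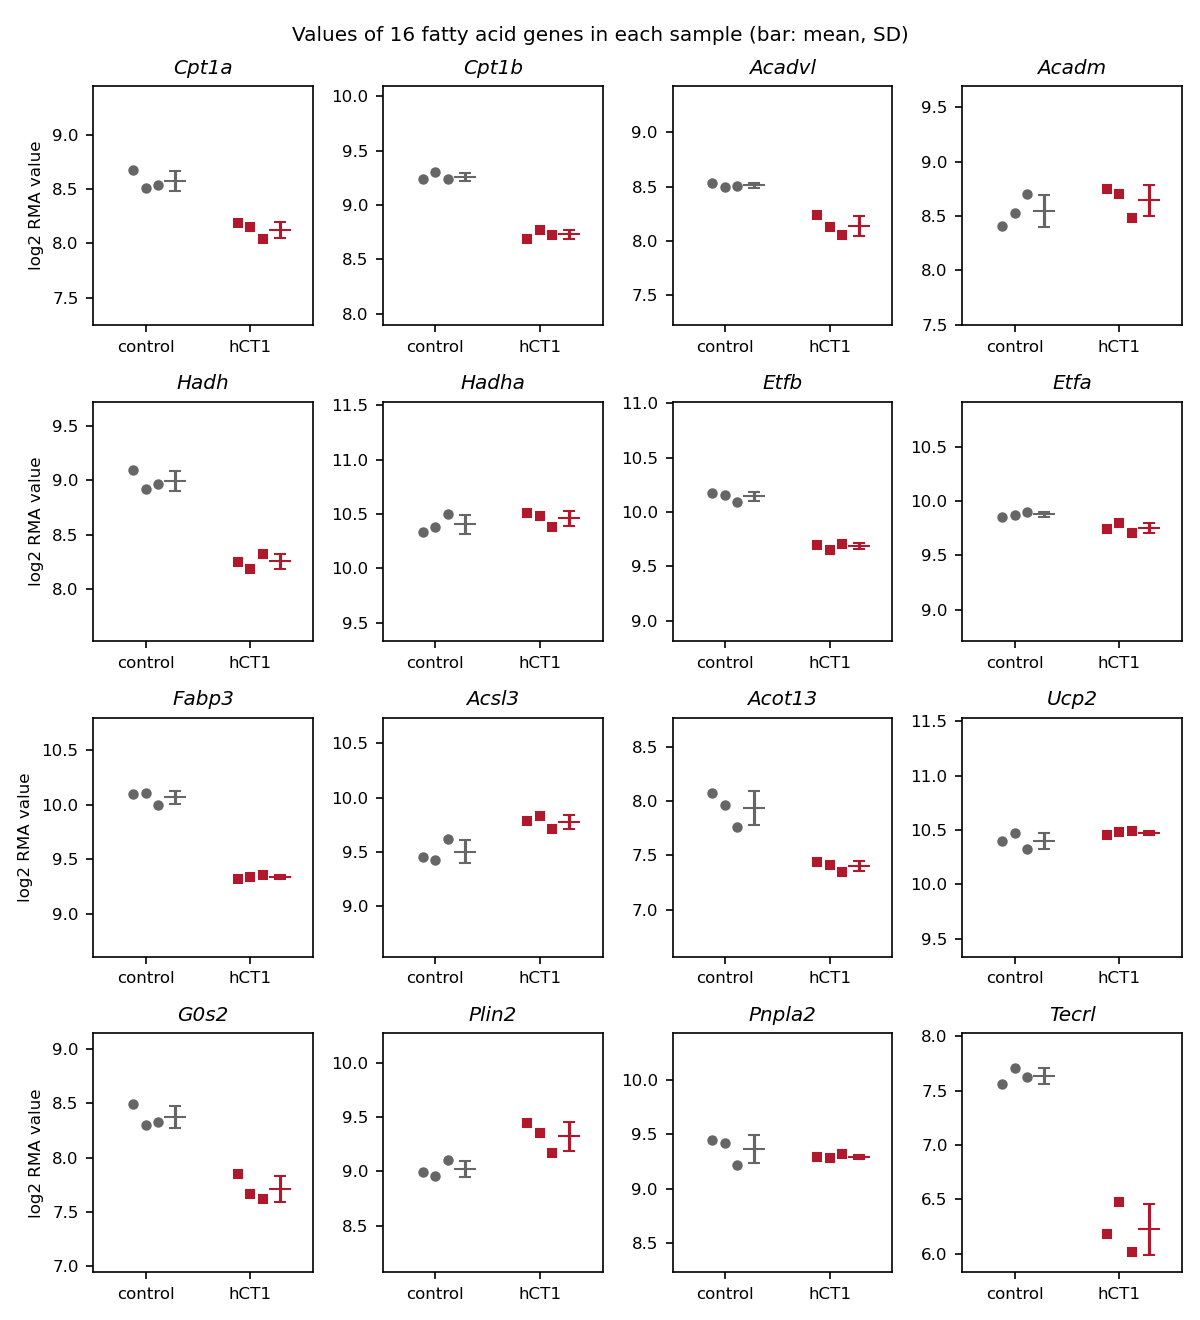
Each panel gives the log2 RMA value of 1 gene in 3 control samples (grey circles) and 3 hCT1-treated samples (red squares), with the mean and SD beside them; every panel spans the same number of log2 units. The groups lie apart in Cpt1a, Cpt1b, Acadvl, Hadh, Etfb, Etfa, Fabp3, Acsl3, Acot13, G0s2, Plin2 and Tecrl and overlap in Acadm, Hadha, Ucp2 and Pnpla2.

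Sequence upstream of the start site is shown for 6 of the genes, as RefSeq gives it on assembly GRCr8, to set the promoters of genes that fell beside the shared promoter of a pair that did not pass. RefSeq windows reaching from 250 bases before to 50 bases after the start site were found for 40 of the 50 genes. Each stretch below holds the 250 bases before the start site, read 5′ to 3′ along the gene, with matches to the letters searched in capitals. The letters were TTCNNNGAA (the STAT element), AGGTCA repeated directly with 1 base between (the direct repeat bound by PPAR and its partner), TCAAGGTCA (the element of estrogen-related receptors) and AGGTCA (a single nuclear receptor site, added after the data were examined), on both strands, where AGGTCA is contained in the direct repeat and in TCAAGGTCA. Tecrl, Hadh and Fabp3, the genes that fell furthest, lie at chr14:25086680-25086929 on the plus strand, chr2:222504447-222504696 on the minus strand and chr5:147935875-147936124 on the plus strand.
Tecrl: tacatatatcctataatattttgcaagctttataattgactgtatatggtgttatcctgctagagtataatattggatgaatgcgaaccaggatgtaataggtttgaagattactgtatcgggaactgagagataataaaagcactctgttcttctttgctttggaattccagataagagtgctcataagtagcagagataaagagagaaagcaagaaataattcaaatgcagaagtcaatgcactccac
Hadh: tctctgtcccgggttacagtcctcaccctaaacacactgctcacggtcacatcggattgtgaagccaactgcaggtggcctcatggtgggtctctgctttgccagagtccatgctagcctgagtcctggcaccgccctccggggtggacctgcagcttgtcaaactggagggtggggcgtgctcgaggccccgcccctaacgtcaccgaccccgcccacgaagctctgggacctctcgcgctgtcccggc
Fabp3: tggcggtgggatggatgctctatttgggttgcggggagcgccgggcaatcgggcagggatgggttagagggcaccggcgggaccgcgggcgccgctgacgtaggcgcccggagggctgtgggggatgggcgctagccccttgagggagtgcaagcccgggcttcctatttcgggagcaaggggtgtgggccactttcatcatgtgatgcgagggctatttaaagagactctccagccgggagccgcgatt
None of these letters occurs in the 3 stretches. G0s2, at chr13:107335949-107336198 on the minus strand, holds a TTCNNNGAA match, and Acadvl, at chr10:55236706-55236955 on the minus strand, holds a pair of AGGTCA matches. The stretches of Acot13, Etfb, Cpt1a and Acads, which fell further than Acadvl, hold none of the letters and are not shown.
G0s2: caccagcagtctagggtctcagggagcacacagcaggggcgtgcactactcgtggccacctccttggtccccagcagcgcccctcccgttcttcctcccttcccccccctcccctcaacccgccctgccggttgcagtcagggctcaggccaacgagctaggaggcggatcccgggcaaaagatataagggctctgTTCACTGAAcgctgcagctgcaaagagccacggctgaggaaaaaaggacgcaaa
Acadvl: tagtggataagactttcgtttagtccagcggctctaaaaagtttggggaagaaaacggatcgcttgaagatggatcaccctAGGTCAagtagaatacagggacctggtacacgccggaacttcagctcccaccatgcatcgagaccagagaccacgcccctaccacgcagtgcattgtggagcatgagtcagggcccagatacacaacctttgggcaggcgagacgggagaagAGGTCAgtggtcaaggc
Hadha and Hadhb, the genes of the alpha and beta subunits of the mitochondrial trifunctional protein, face away from each other with start sites 301 bases apart, so that their upstream stretches share 200 bases. The shared promoter is shown from the side of Hadha, at chr6:31907551-31907800 on the plus strand, and its TTCNNNGAA match is also the match in the window of Hadhb.
Hadha: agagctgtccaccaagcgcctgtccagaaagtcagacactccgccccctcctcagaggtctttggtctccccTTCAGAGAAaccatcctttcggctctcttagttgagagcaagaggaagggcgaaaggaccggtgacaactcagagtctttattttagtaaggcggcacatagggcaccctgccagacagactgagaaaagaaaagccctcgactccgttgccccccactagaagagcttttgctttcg

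Over the full windows of 300 bases, AGGTCA occurred in 5 of 13 windows of genes that fell (38.5%), in 5 of 25 windows of genes that did not pass (20%) and in 16.2% of 33469 RefSeq windows. The genes that fell with such a match were Acadvl, Echs1, Eci1, Eci2 and G0s2. TTCNNNGAA occurred in 1 of 13 windows of genes that fell (7.69%), in 5 of 25 windows of genes that did not pass (20%) and in 8.87% of all windows. The match shared by Hadha and Hadhb is counted in both of their windows. The direct repeat and the TCAAGGTCA element occurred in 0 of 41 windows of the set, against 0.0538% and 0.433% of all windows. A match describes letters in these windows and not a bound site. Cpt1b, Cpt1c, Acadl, Acaa2, Decr1, Fabp4, Fabp5, Lipe, Dgat1 and Dgat2 had no entry.

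Uptake and binding differed from gene to gene. Fabp3, the heart fatty acid-binding protein that carries fatty acids through the cytosol of muscle cells (probe set 10872473), was 10.10, 10.11 and 10.00 in control samples and 9.31, 9.34 and 9.36 in hCT1-treated samples. All treated samples were low, and the groups lay far apart compared with their spread. This was a log2 fold change of -0.73 (limma: SE 0.06, adjusted p = 6.32e-05). Fabp5, the epidermal form, was 7.10, 7.07 and 7.08 in control samples and 7.01, 7.07 and 7.03 in hCT1-treated samples. Its groups overlapped, with a log2 fold change of -0.05 (adjusted p = 0.57 from limma), and its 2 probe sets hold identical values and count as 1 measurement. Fabp4, the form of fat cells and capillary endothelium, had a mean signal at percentile 13.2 of the tested probe sets, so its values may be background. Slc27a1, a fatty acid transport protein of muscle and fat, was 7.47, 7.59 and 7.30 in control samples and 7.28, 7.29 and 7.34 in hCT1-treated samples, and the groups overlapped (log2 fold change -0.15, adjusted p = 0.223 from limma). It passed without control replicate 3 (adjusted p = 0.0424 from limma). Slc27a4 had a log2 fold change of -0.14 (adjusted p = 0.196 from limma), and Slc27a6, at percentile 10.1 of mean signal, one of 0.04.

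None of the acyl-CoA synthetases, which activate fatty acids by joining them to coenzyme A, passed the test as lower, and 1 of 5 passed as higher. Acsl3, which is known for its place on the endoplasmic reticulum and lipid droplets (probe set 10924672), was 9.46, 9.43 and 9.62 in control samples and 9.78, 9.83 and 9.71 in hCT1-treated samples. The treated samples were all higher than the controls. It rose, with a log2 fold change of 0.27 (limma: SE 0.07, adjusted p = 0.0291). The call was lost when either of control replicates 1 and 2 or of hCT1 replicates 1 and 2 was left out, when the adjusted p from limma lay between 0.0804 and 0.105. Acsl5, which is found on mitochondria and endoplasmic reticulum, was 9.60, 9.67 and 9.85 in control samples and 10.02, 10.03 and 9.87 in hCT1-treated samples. The groups were apart by a narrow gap between control replicate 3 and hCT1 replicate 3, and the log2 fold change of 0.27 missed the threshold (adjusted p = 0.0534 from limma). It passed in 7 of 17 alternatives, among them array weights, median centring and leaving out control replicate 3. Acsl4, which prefers arachidonate, also had groups apart, with a log2 fold change of 0.16 (adjusted p = 0.103 from limma). Acsl1, the main synthetase of the heart, was 8.45, 8.49 and 8.56 in control samples and 8.52, 8.42 and 8.27 in hCT1-treated samples. Its groups overlapped, and the log2 fold change of -0.09 had a 95% interval of -0.26 to 0.07 (adjusted p = 0.426 from limma). Acsl6, the brain form, was dim (percentile 26.7 of mean signal) and did not pass. Of the 11 genes of uptake, binding and activation, 1 was lower, 1 was higher and 9 did not pass. Their median log2 fold change was 0.04. By the same rule 9.58% of all genes were lower and 5.09% higher.

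In the carnitine shuttle, Cpt1b and Cpt1a fell, while Cpt1c, Slc25a20, Cpt2 and Crat did not pass the test. Differences in change between the genes that fell and those that did not pass were not tested. Cpt1b, the muscle form of carnitine palmitoyltransferase 1 on the outer mitochondrial membrane (probe set 10906302), was 9.24, 9.30 and 9.24 in control samples and 8.69, 8.77 and 8.73 in hCT1-treated samples. Samples within a group were close together, and the groups were well apart. The values give a log2 fold change of -0.53 (limma: SE 0.05, adjusted p = 0.00039), or 1.44-fold lower. Cpt1a, the liver form, which is also abundant in the newborn heart (probe set 10712657), was 8.68, 8.51 and 8.53 in control samples and 8.18, 8.15 and 8.04 in hCT1-treated samples. Again no treated sample reached the lowest control. This was a log2 fold change of -0.45 (limma: SE 0.07, adjusted p = 0.00294), or 1.37-fold lower. Cpt1c, the brain form, also had every hCT1 sample below every control sample, with a log2 fold change of -0.24 that lay just outside the threshold (adjusted p = 0.0542 from limma) and passed without control replicate 3.

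Slc25a20, the carrier that exchanges acylcarnitine for carnitine across the inner membrane, was 8.41, 8.47 and 8.57 in control samples and 8.36, 8.42 and 8.31 in hCT1-treated samples. A control and a treated sample overlapped narrowly, and the log2 fold change was -0.12 (95% interval -0.26 to 0.02, adjusted p = 0.246 from limma). Cpt2, which returns the acyl group to coenzyme A in the matrix, was 9.11, 9.13 and 9.02 in control samples and 8.98, 9.05 and 8.92 in hCT1-treated samples. The groups overlapped, with a log2 fold change of -0.10 (95% interval -0.24 to 0.03, adjusted p = 0.279 from limma). Crat, which makes acetylcarnitine, had a log2 fold change of 0.0025 (95% interval -0.12 to 0.13). Of all genes 9.58% fell and 5.09% rose, and of 6 carnitine shuttle genes 2 fell, 0 rose and 4 did not pass. Their median was -0.18. At an unadjusted p under 0.05, 3 were lower and 0 higher, against 17.9% and 12.0% of all genes.

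The beta-oxidation enzymes held 10 of the 16 falls. Of 18 genes of beta-oxidation and the electron transfer flavoprotein, 10 were lower and 0 were higher, against 9.58% and 5.09% of all genes, with a median log2 fold change of -0.22. At an unadjusted p under 0.05 the counts were 11 and 0, against 17.9% and 12.0% of all genes. Without control replicate 1 or without hCT1 replicate 3, 6 of the 10 remained in each case, of 12 falls over the whole set. In these fits 5.13% and 6.36% of all genes were lower. In the first dehydrogenation, Acadvl, the enzyme for very long chains (probe set 10744348), was 8.53, 8.50 and 8.50 in control samples and 8.23, 8.13 and 8.05 in hCT1-treated samples. The controls were nearly equal and all treated samples were lower. This was a log2 fold change of -0.37 (limma: SE 0.06, adjusted p = 0.0048). Acads, the enzyme for short chains (probe set 10759034), was 8.27, 8.15 and 8.10 in control samples and 7.85, 7.72 and 7.71 in hCT1-treated samples, with the groups apart and a log2 fold change of -0.41 (adjusted p = 0.00468 from limma). Acadm, the enzyme for medium chains, was 8.41, 8.53 and 8.70 in control samples and 8.75, 8.70 and 8.48 in hCT1-treated samples. Its controls were spread widely, the groups overlapped, and the log2 fold change of 0.10 had a 95% interval of -0.11 to 0.31 (adjusted p = 0.523 from limma). Acadl, the enzyme for long chains, was 9.99, 10.04 and 10.18 in control samples and 10.20, 10.18 and 10.05 in hCT1-treated samples. It overlapped as well (log2 fold change 0.07, 95% interval -0.09 to 0.23, adjusted p = 0.533 from limma). Acadsb, which acts on short branched chains, had a log2 fold change of -0.08 (adjusted p = 0.534 from limma).

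Among the enzymes of hydration and of the second dehydrogenation, Hadh, the short-chain 3-hydroxyacyl-CoA dehydrogenase (probe set 10826828), was 9.09, 8.92 and 8.96 in control samples and 8.25, 8.19 and 8.32 in hCT1-treated samples. The highest treated sample lay well below the lowest control. It had a log2 fold change of -0.74 (limma: SE 0.07, adjusted p = 0.00017), or 1.67-fold lower, and ranked 55 from the lowest log2 fold change among 14506 genes. Echs1, the short-chain enoyl-CoA hydratase (probe set 10726611), was 9.74, 9.84 and 9.83 in control samples and 9.55, 9.54 and 9.54 in hCT1-treated samples. Its treated samples were nearly identical and below all controls, a log2 fold change of -0.26 (adjusted p = 0.0141 from limma) that did not pass without control replicate 2. The trifunctional protein carries out these steps and thiolysis for long chains. Hadha was 10.34, 10.38 and 10.50 in control samples and 10.51, 10.49 and 10.38 in hCT1-treated samples. Hadhb was 9.64, 9.82 and 10.04 in control samples and 9.94, 10.01 and 9.84 in hCT1-treated samples. Both overlapped between groups, with log2 fold changes of 0.05 (95% interval -0.09 to 0.20) for Hadha and 0.10 (95% interval -0.13 to 0.32) for Hadhb, and neither passed (adjusted p = 0.616 and 0.554 from limma). The dimmer probe set of Hadha had a log2 fold change of -0.01 (adjusted p = 0.924 from limma). In both, control replicate 1 was the lowest control, control replicate 3 the highest control and hCT1 replicate 3 the lowest treated sample. This order was found in 12 of the 50 genes (24%), in 1 of the 18 that passed (5.56%) and in 9.38% of all genes. Differences in change between these genes and Hadh or Echs1 were not tested.

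Of the thiolases, which release acetyl-CoA, Acaa2, the matrix enzyme (probe set 10802691), was 9.22, 8.97 and 9.10 in control samples and 8.75, 8.57 and 8.55 in hCT1-treated samples. All treated samples were lower, a log2 fold change of -0.47 (adjusted p = 0.00515 from limma). Acat1, which acts on acetoacetyl-CoA, was 8.90, 8.91 and 9.05 in control samples and 8.73, 8.76 and 8.62 in hCT1-treated samples. The groups were narrowly apart, a log2 fold change of -0.25 (adjusted p = 0.0362 from limma). Its call was lost when any 1 of the 6 samples was left out. Acaa1b, a peroxisomal thiolase whose near copy Acaa1a may share its probe signal, had a log2 fold change of -0.02 (adjusted p = 0.886 from limma).

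The auxiliary enzymes, which prepare unsaturated chains for the pathway, were lower in all 3 cases, each with groups apart. Eci1, an enoyl-CoA isomerase, was 9.66, 9.49 and 9.46 in control samples and 9.28, 9.20 and 9.21 in hCT1-treated samples. Control replicate 1 stood above the other controls, and the log2 fold change was -0.30 (adjusted p = 0.0186 from limma). Eci2, an isomerase of mitochondria and peroxisomes, was 7.93, 7.82 and 7.85 in control samples and 7.59, 7.64 and 7.61 in hCT1-treated samples. The treated samples were close together and low, with a log2 fold change of -0.25 (adjusted p = 0.0177 from limma). Decr1, the dienoyl-CoA reductase, was 7.56, 7.56 and 7.62 in control samples and 7.32, 7.42 and 7.40 in hCT1-treated samples. The gap between the groups was small, and the log2 fold change of -0.20 lay just inside the threshold (adjusted p = 0.0419 from limma). Decr1 lost its call whichever sample was left out, Eci1 without control replicate 1 or hCT1 replicate 2 or 3, and Eci2 without control replicate 1 or hCT1 replicate 1 or 3.

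Etfb, the beta subunit of the electron transfer flavoprotein (probe set 10706339), was 10.18, 10.16 and 10.10 in control samples and 9.70, 9.65 and 9.70 in hCT1-treated samples. Its groups were tight and far apart, a log2 fold change of -0.46 (limma: SE 0.05, adjusted p = 0.000811). Etfa, its alpha subunit, was 9.85, 9.87 and 9.90 in control samples and 9.74, 9.80 and 9.71 in hCT1-treated samples. All treated samples were below the controls, but the log2 fold change of -0.13 did not pass (adjusted p = 0.149 from limma). Etfdh, which passes the electrons on to ubiquinone, had a log2 fold change of -0.12 with overlapping groups (adjusted p = 0.47 from limma).

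**Figure D2:**
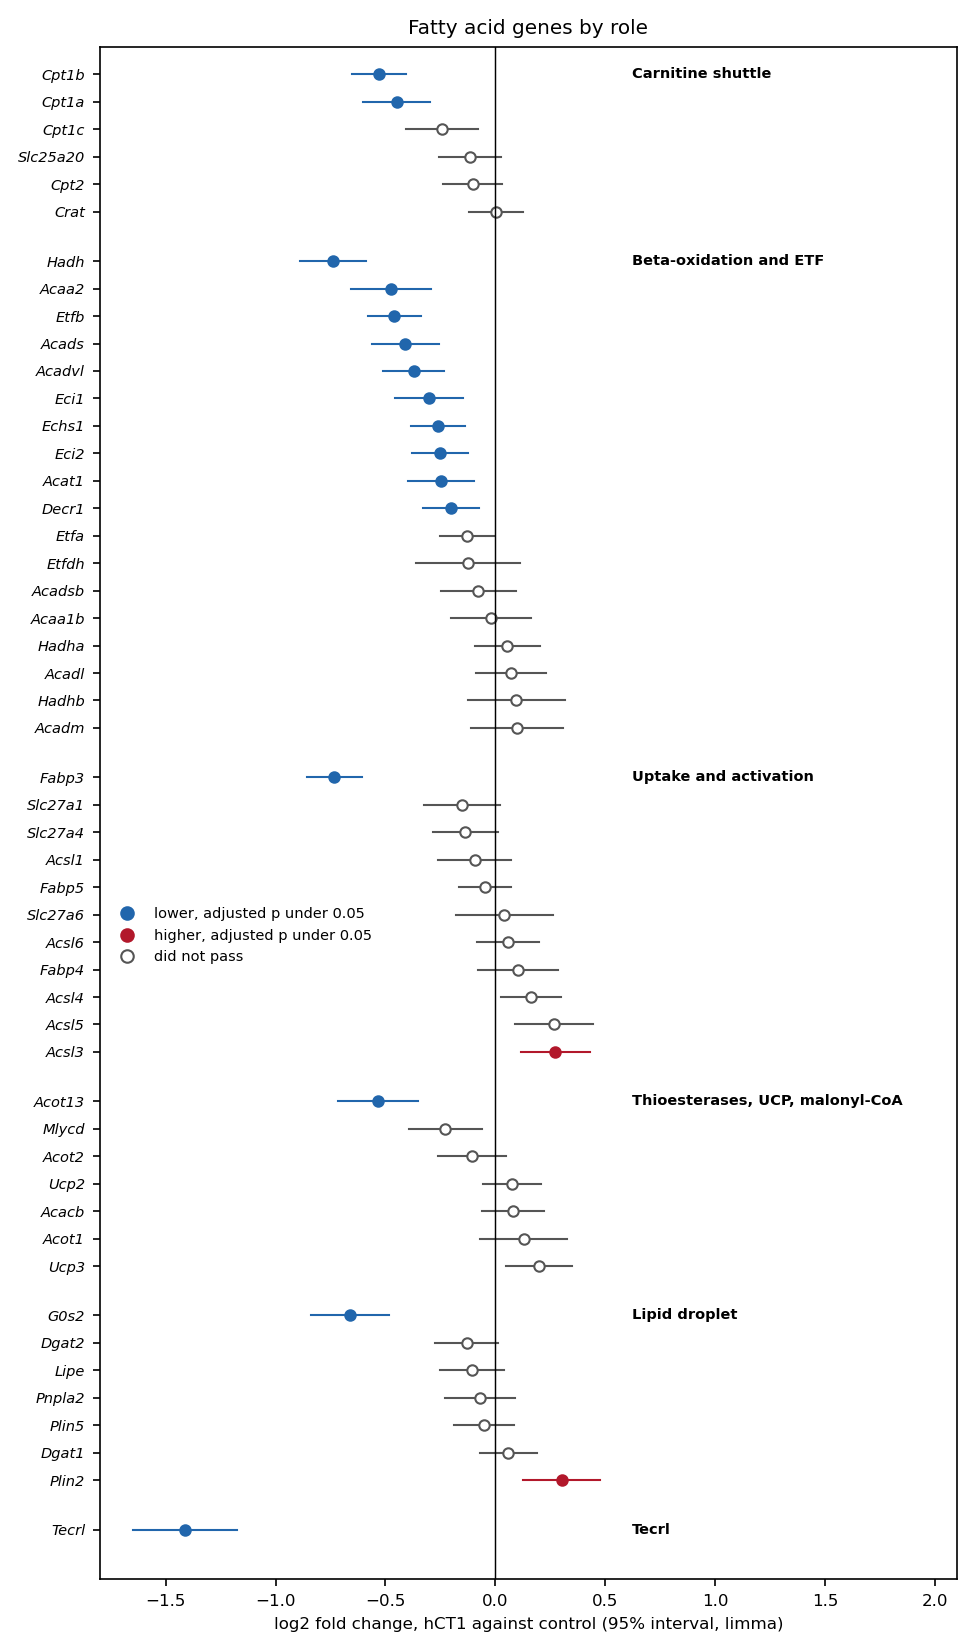
Points give the change of each gene with hCT1 on the log2 scale (3 samples a group) with its 95% interval from limma, grouped by role and ordered by size; filled blue points were lower and filled red points higher at an adjusted p under 0.05, and open points did not pass. The 10 falls of beta-oxidation and ETF (electron transfer flavoprotein) genes lie between -0.74 and -0.20, Tecrl stands alone at -1.41, and the rises of Plin2 and Acsl3 are 0.30 and 0.27; UCP stands for uncoupling proteins.

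Among thioesterases, which split acyl-CoA, uncoupling proteins and enzymes of malonyl-CoA, 1 of 7 genes fell and 0 rose (at an unadjusted p under 0.05, 2 and 1). Over all genes the shares were 9.58% and 5.09% (17.9% and 12.0% unadjusted). Acot13, a thioesterase associated with mitochondria (probe set 10795108), was 8.08, 7.96 and 7.76 in control samples and 7.44, 7.41 and 7.35 in hCT1-treated samples. The controls were spread but all lay above the treated samples. This was a log2 fold change of -0.53 (limma: SE 0.08, adjusted p = 0.00291), or 1.45-fold lower. Acot2, the mitochondrial thioesterase, had a log2 fold change of -0.11 (adjusted p = 0.33 from limma), and its near copy Acot1 was at percentile 8.97 of mean signal. Ucp2, an uncoupling protein of many tissues, was 10.40, 10.47 and 10.32 in control samples and 10.45, 10.48 and 10.49 in hCT1-treated samples. The groups overlapped, with a log2 fold change of 0.08 (95% interval -0.05 to 0.21, adjusted p = 0.412 from limma). Ucp3, the muscle form, was 4.52, 4.39 and 4.43 in control samples and 4.75, 4.61 and 4.57 in hCT1-treated samples. Every treated sample was above every control, but the log2 fold change of 0.20 did not pass (adjusted p = 0.0791 from limma), and at percentile 27.3 of mean signal its values may be background. Mlycd, which breaks down malonyl-CoA, had groups apart with hCT1 lower (log2 fold change -0.23, adjusted p = 0.0698 from limma). Acacb, the acetyl-CoA carboxylase that makes malonyl-CoA at mitochondria, had overlapping groups and a log2 fold change of 0.08 (adjusted p = 0.439 from limma).

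In the lipid droplet group, 1 of 7 genes fell and 1 rose, where 9.58% of all genes fell and 5.09% rose. G0s2, the inhibitor of adipose triglyceride lipase (probe set 10770807), was 8.49, 8.30 and 8.33 in control samples and 7.85, 7.67 and 7.62 in hCT1-treated samples. No treated sample reached the lowest control. This was a log2 fold change of -0.66 (limma: SE 0.08, adjusted p = 0.000851), or 1.58-fold lower. Pnpla2, which encodes the lipase itself, was 9.45, 9.42 and 9.22 in control samples and 9.29, 9.28 and 9.32 in hCT1-treated samples. The treated samples lay between the controls, and the log2 fold change of -0.07 had a 95% interval of -0.23 to 0.09 (adjusted p = 0.548 from limma). Plin2, the coat protein of lipid droplets in most cells (probe set 10877907), was 8.99, 8.96 and 9.11 in control samples and 9.44, 9.35 and 9.17 in hCT1-treated samples. All treated samples were higher, with a narrow gap between control replicate 3 and hCT1 replicate 3. It rose, with a log2 fold change of 0.30 (limma: SE 0.08, adjusted p = 0.0317), and the call was lost when replicate 1 or 2 of either group was left out (adjusted p from 0.0925 to 0.106, limma). Plin5, the coat protein of oxidative tissue, was dim, at 5.14, 5.21 and 5.28 in control samples and 5.20, 5.11 and 5.17 in hCT1-treated samples. Its groups overlapped (log2 fold change -0.05, adjusted p = 0.604 from limma). Hormone-sensitive lipase, Lipe, had a log2 fold change of -0.11. The diacylglycerol acyltransferases, which make triglyceride, had log2 fold changes of 0.06 for Dgat1 and -0.13 for Dgat2, and none of these 3 genes passed.

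Tecrl, a relative of the enoyl-CoA reductase that closes each round of fatty acid elongation, is found in heart and skeletal muscle, where its loss is linked to inherited arrhythmia. Its probe set (10772147) was 7.56, 7.71 and 7.63 in control samples and 6.18, 6.47 and 6.02 in hCT1-treated samples. The lowest control lay above the highest treated sample by over 1 log2 unit, although the treated samples were more spread than the controls. The change was a log2 fold change of -1.41 (limma: SE 0.10, adjusted p = 5.69e-05), which ranked 4 from the lowest among 14506 genes. Tecr, the ubiquitous relative, had a log2 fold change of 0.04 (adjusted p = 0.708 from limma).

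For 8 pairs of genes of like or opposed role, the difference of their log2 values within each array was compared between groups, which asks whether they changed unequally. With 3 samples a group, the smallest p of an exact permutation test is 0.1, so none of these tests could pass. The groups were apart in 5 pairs, each with p = 0.1 in the 2-sided exact permutation test (0.16 after Benjamini-Hochberg adjustment over the 8 pairs). The 95% intervals given here come from the pooled variance of the groups and a t distribution, not from limma or the permutation test. They describe the spread of these arrays and do not stand in for a test that could pass. The difference Fabp3 minus Fabp5 was lower with hCT1 by 0.68 (95% interval of the change -0.80 to -0.57). Pnpla2 minus G0s2 was higher by 0.59 (0.31 to 0.88). Mlycd minus Acacb was lower (change -0.31, interval -0.50 to -0.11), as were Acsl1 minus Acsl4 (-0.26, interval -0.40 to -0.12) and Dgat2 minus Dgat1 (-0.19, interval -0.31 to -0.07). Cpt1b minus Cpt1a overlapped between groups (change -0.08, interval -0.32 to 0.16, exact permutation p = 0.4), as did Ucp3 minus Ucp2 (0.12, interval -0.14 to 0.38, exact permutation p = 0.4) and Slc27a1 minus Slc27a4 (-0.01, interval -0.16 to 0.13, exact permutation p = 0.8).

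**Figure D3:**
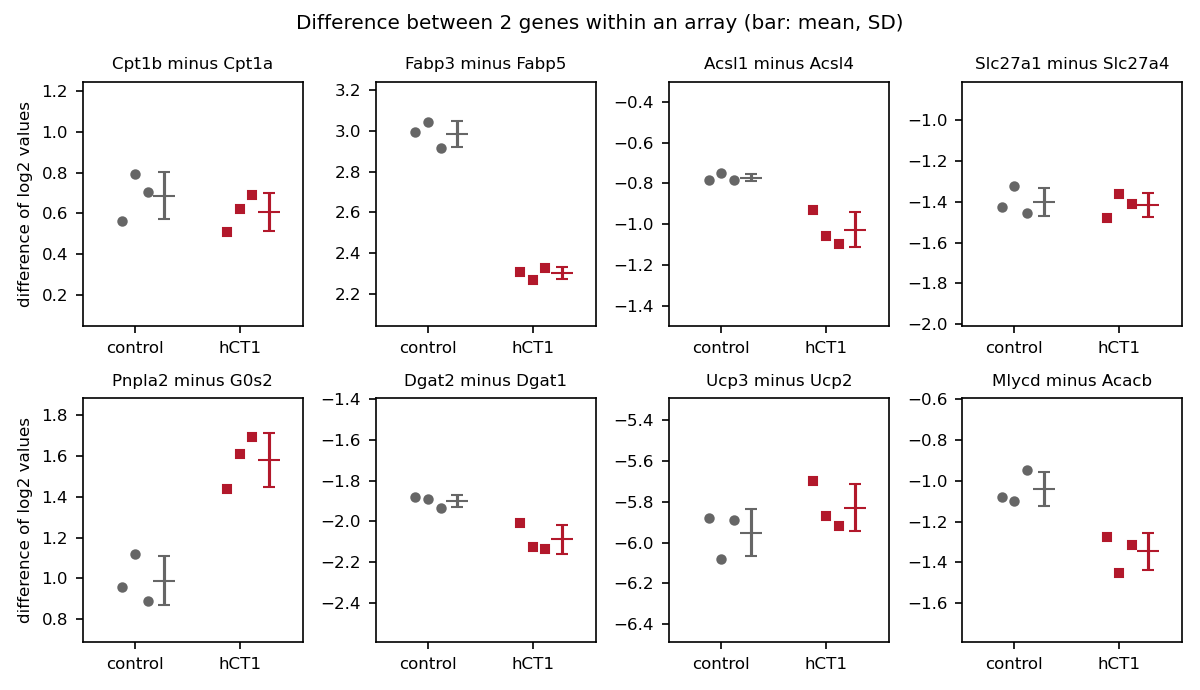
Each panel gives the difference of the log2 RMA values of 2 genes within an array, for 3 control samples (grey circles) and 3 hCT1-treated samples (red squares), with the mean and SD; every panel spans the same number of log2 units. The groups lie apart for Fabp3 minus Fabp5, Acsl1 minus Acsl4, Pnpla2 minus G0s2, Dgat2 minus Dgat1 and Mlycd minus Acacb and overlap in the other 3 panels.

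Of 90 other genes listed for fatty acid metabolism, 73 were measured: 6 fell, 10 rose and 57 did not pass. Their median log2 fold change was 0.02. By the same rule 9.58% of all genes fell and 5.09% rose. Leaving out 1 sample, the count of higher genes was 5 (control replicate 1, control replicate 2 or hCT1 replicate 1), 4 (hCT1 replicate 2), 6 (hCT1 replicate 3) or 10 (control replicate 3). In these fits, in the same order, 3.11%, 2.79%, 2.85%, 3.34%, 3.40% and 5.83% of all genes were higher. Genes of fatty acid synthesis and desaturation that passed were all higher. Of 13 such genes, 6 were higher (5.09% of all genes were), 0 were lower and 7 did not pass; the median was 0.18, and all 13 values were above 0. Elovl6, which lengthens palmitate, the product of the synthase, was 10.45, 10.50 and 10.55 in control samples and 10.90, 10.93 and 10.85 in hCT1-treated samples. The groups were tight and apart, a log2 fold change of 0.39 (limma: SE 0.06, adjusted p = 0.00224). Scd, the stearoyl-CoA desaturase, rose by 0.27 on the log2 scale (adjusted p = 0.0125 from limma), Fads1 by 0.23 (adjusted p = 0.0197 from limma) and Me1, a malic enzyme that supplies NADPH, by 0.22 (adjusted p = 0.0421 from limma). The other 2 that rose were Fads2 and Elovl5. They were named after their values were seen, as were Fasn, Acaca and Tecr. Fasn, the synthase itself, had a log2 fold change of 0.05 and Acaca, the cytosolic acetyl-CoA carboxylase, one of 0.10, and neither passed. The difference between the synthesis and oxidation genes was not tested.

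In peroxisomal beta-oxidation, 2 of 12 genes fell and 0 rose, with a median of -0.09. At an unadjusted p under 0.05, 3 fell and 0 rose. For this and the counts that follow, 9.58% of all genes fell and 5.09% rose (17.9% and 12.0% unadjusted). Pecr, a peroxisomal enoyl-CoA reductase, fell by 0.50 (adjusted p = 0.00111 from limma), and Phyh, which starts the breakdown of phytanic acid, by 0.32 (adjusted p = 0.0108 from limma). Among 14 other acyl-CoA enzymes, listed as mitochondrial, 2 fell and 2 rose (median -0.01). Mcee and Pcca, which fell (log2 fold changes -0.72 and -0.20), act in the breakdown of propionyl-CoA, as does Pccb, the partner subunit of Pcca, which had a log2 fold change of 0.0044 (adjusted p = 0.973 from limma) and was named after its value was seen. Bdh1, the 3-hydroxybutyrate dehydrogenase of ketone body metabolism, was 8.57, 8.73 and 8.59 in control samples and 9.13, 9.14 and 9.16 in hCT1-treated samples. It rose by 0.52 (adjusted p = 0.000815 from limma). Acat2, which also rose (0.34, adjusted p = 0.0411 from limma), is a cytosolic thiolase of sterol synthesis. Of 15 other genes of uptake and binding, 2 fell and 1 rose. Lpl, the lipoprotein lipase that frees fatty acids from circulating triglyceride, rose by 0.38 (adjusted p = 0.0102 from limma). Cd36, the fatty acid translocase, was lower on its brighter probe set (log2 fold change -0.29, adjusted p = 0.0175 from limma), while its other probe set missed the threshold (-0.20, adjusted p = 0.416 from limma). Fabp1, the liver form, was lower (-0.48) but lay at percentile 24.1 of mean signal. Of 19 other lipid droplet and glycerolipid genes, 0 fell (4 were lower at an unadjusted p under 0.05) and 1 rose, namely Pnpla3 (0.50, adjusted p = 0.00112 from limma).

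**Figure D4:**
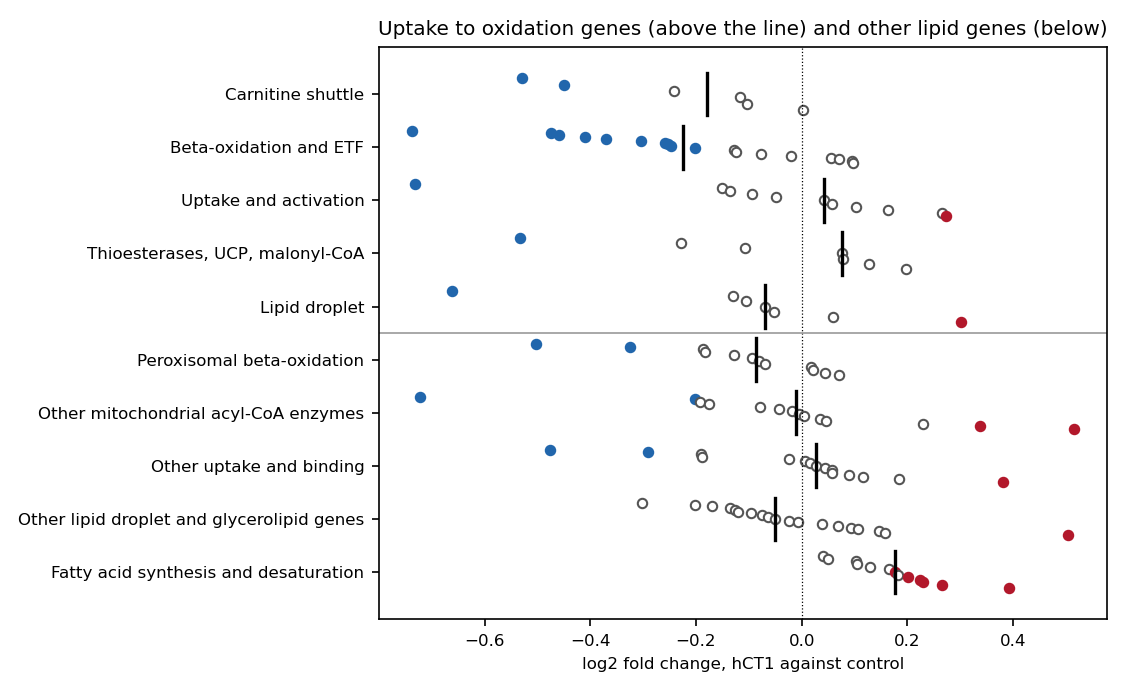
Points give the change of each gene with hCT1 on the log2 scale (3 samples a group), with the genes from uptake to oxidation above the grey line (Tecrl left out) and other lipid genes below; filled blue and red points were lower and higher at an adjusted p under 0.05 from limma, open points did not pass, and black bars are medians. The median is -0.22 for beta-oxidation and ETF genes and 0.18 for fatty acid synthesis and desaturation, where all 13 points lie above 0.

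Markers of the cells in the culture were measured beside these genes. In bulk samples, fewer cells of a type and less RNA per cell cannot be told apart. Of 11 cardiomyocyte markers, 6 were lower and 0 higher, against 9.58% and 5.09% of all genes, and 5 did not pass (median -0.22). Their summed linear signal ranged from 22521 to 23105 in control samples and from 19965 to 20978 in hCT1-treated samples. Ckm, Tnni3 and Myh6 had log2 fold changes of -0.71, -0.62 and -0.45, while Tnnt2 and Myh7 had log2 fold changes of 0.03 and 0.01. None of 11 fibroblast markers passed (3 did so at an unadjusted p under 0.05 from limma, 2 lower and 1 higher; median -0.04; summed signal 13488 to 14063 in control and 13153 to 13409 in hCT1-treated samples). Of 10 endothelial markers 1 was lower, of 7 smooth muscle markers 3 were lower, and of 9 leukocyte markers 1 was lower and 1 higher. By the same rule 9.58% of all genes were lower and 5.09% higher. The summed signal of smooth muscle markers was 10510 to 10804 in control and 9945 to 10131 in hCT1-treated samples. For leukocyte markers, 6 of them in the lowest 40% of mean signal, it was 549 to 602 and 445 to 518. For endothelial markers it overlapped, at 1244 to 1399 and 1273 to 1317. All 7 adipocyte markers lay in the lowest 40% of mean signal, and 0 passed in limma, also at an unadjusted p under 0.05. The part of cell composition in the changes of the fatty acid genes was not tested.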

How the data were processed

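Signals of 6 Affymetrix whole-transcript arrays were analysed, 3 per group. The authors scanned the arrays and summarised them by RMA in Affymetrix Expression Console (version not given in the sources used here), which corrects background, normalises by quantiles and summarises probes on a log scale, and deposited log2 values for 29215 probe sets. Quantile normalisation removes any shift shared by all genes. Of these probe sets, 15310 had exactly 1 gene symbol, 323 several and 13582 none, and 15279 matched RefSeq GRCr8 by Entrez identifier.

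The groups were compared with limma 3.58.1 (R 4.3.3; lmFit and eBayes, 2-sided) over the 15310 probe sets, with Benjamini-Hochberg adjustment and a threshold of 0.05. Each gene was represented by its brightest probe set on average, giving 14506 genes. The fit was tested on simulated data for this comparison: of 67 probe sets changed by 1 log2 unit 66 were called, of 67 changed by 0.5, 50, of 66 changed by 0.25, 11, and of 15110 unchanged, 4. Only 200 of the 15310 probe sets were changed in the simulation, while 14.7% of genes were called in the data. The adjustment depends on that share, so recovery in the data may differ. The number of arrays limits the precision. The records do not name scan batches.

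Every listed gene could be named. Values in every sample are given for the genes that passed and for a fixed list of key steps, and of the other lists at most the 4 largest changes that passed were named, apart from the exceptions stated. The genes and lists were chosen with earlier results of these data known. Alternatives were another variance model, array weights, the methods' one-way test, other thresholds, a filter on probe sets below percentile 40 of mean signal, all probe sets, 2 further normalisations, averaged probe sets, a replicate block and leaving out each sample.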

Additional observations from a re-analysis of the deposited data

How the results depend on the processing

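No gene that passed changed sign under any alternative. Of the 18 genes that passed, 8 did so under every alternative (Cpt1a, Cpt1b, Acadvl, Hadh, Etfb, Fabp3, G0s2 and Tecrl) and 11 in all 6 fits without 1 sample. The methods' one-way test, after Benjamini-Hochberg adjustment, called 10 genes lower and 0 higher (beta-oxidation 5 lower, thioesterases 0 lower). It called 4.20% of all genes lower and 2.52% higher. At an adjusted p under 0.01, 11 were lower and 0 higher (5 lower in beta-oxidation), and among other fatty acid genes 3 were higher and 2 lower. At this threshold 3.56% of all genes were lower and 1.99% higher. Where p was under 0.05 without adjustment, 5 of the 50 were higher, 2 thioesterase genes lower and 14 of 73 other genes lower, where 12.0% of all genes were higher and 17.9% lower. The count of higher genes was 4 with a mean-variance trend, 5 with array weights, 4 of 44 without dim probe sets, 4 with median centring and 0 over all probe sets. In that order, 6.49%, 7.29%, 9.53%, 6.13% and 2.92% of all genes tested were higher. Without dim probe sets, 18 of 44 genes of the set were lower, among them 10 of 18 beta-oxidation genes and 2 thioesterase genes. Of 53 other genes 10 were lower, where 20.7% of all genes tested were. Over all probe sets, 6 other genes were higher. The cause was not tested.

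With 1 sample left out, 12 to 16 genes were lower and 0 to 3 higher, where 5.13% to 11.7% of all genes were lower and 2.79% to 5.83% higher. The range was 2 to 3 for the carnitine shuttle, 6 to 8 for beta-oxidation, 1 to 2 for uptake (2 without control replicate 3, when Slc27a1 passed) and 1 throughout for thioesterases and for lipid droplets. Other fatty acid genes ranged from 4 to 8 lower and from 4 to 10 higher. The difference Slc27a1 minus Slc27a4, near 0 at -0.01, turned to 0.03 with a further quantile normalisation and ranged from -0.04 to 0.02 with 1 sample left out.

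No pairing by replicate number was seen in the deviations from the group means, which correlated at -0.025, 0.046 and -0.285 for numbers 1 to 3. Control replicate 1 correlated best with hCT1 replicate 3 (0.206). With 3 samples a group, such correlations cannot show whether the samples were prepared in pairs. With the replicate block, 13 genes were lower and 0 higher, and 5 of 73 other genes were higher. In this fit 6.5008% of all genes were lower and 3.2883% higher. On these arrays 6 of the 50 genes lay in the lowest 40% of mean signal.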
